A study of Mus musculus with 7 samples.

Results

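Transcripts of lung epithelium, endothelium and stroma were followed in RNA-seq libraries of regulatory T (Treg) cells sorted from mouse lung. The 33 genes were a fixed list of symbols, grouped by their known cell source and chosen with earlier results of these data known. All 33 were found among the 19736 rows of the deposited files. They fell into 8 alveolar, 4 airway, 4 pan-epithelial, 8 endothelial and 9 fibroblast and matrix genes. The 7 libraries were 3 of CCR6+Foxp3EGFP+ Il4raR576 and 4 of CCR6-Foxp3EGFP+ Il4raR576 Treg cells. Both groups therefore carried the Il4ra allele R576, of a chain of the receptor for interleukin 4, with an EGFP reporter of Foxp3, and they differed in surface CCR6, a chemokine receptor. The female mice were 5 to 7 weeks old, had been injected with ovalbumin, were boosted later, and breathed an ovalbumin aerosol on 3 days before they were killed on day 32. Cells were purified by flow sorting from digests of the whole lung. The labels do not say whether libraries came from separate mice or from pooled mice, so each p-value reflects the library-to-library spread alone, and that spread may be technical.

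A digest of lung frees every cell of the organ along with the lymphocytes. Alveolar type II cells make surfactant, the lipid and protein film that keeps air sacs open, and alveolar type I cells form the thin surface for gas exchange. Club cells secrete secretoglobins into the airways, ciliated cells move mucus, and beneath the epithelium lie capillary endothelium and collagen-producing fibroblasts. Treg cells are not known as a source of surfactant, von Willebrand factor or fibrillar collagen, whereas Pecam1, the adhesion molecule CD31, is also known on T cells. In bulk RNA, fewer cells of a type and less RNA per cell cannot be told apart.

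The libraries held 11607780 to 47261246 reads, and 1 read was worth 0.677 to 2.27 units of the deposited normalised count. CCR6+ replicate 2 stood apart from the rest: it was the shallowest, and yet only 2.16% of all genes were at 0 in it, against 6.89% to 29.7% elsewhere. All 8 genes of a Treg and T cell list were above 0 in every library. Foxp3, the defining factor of Treg cells, was lowest in CCR6+ replicate 2, at 12206 normalised counts against 19376 to 50875, and Cd3e, a T cell receptor subunit, likewise at 20891 against 23177 to 43651. Ccr6 stood at 7309, 2750 and 6406 in CCR6+ replicates 1 to 3, so it too was lowest of its group in replicate 2. It lay between 271 and 909 in the CCR6- libraries. The 33 lung genes took 0.636% of all reads in CCR6+ replicate 2 (Wilson 95% interval 0.632% to 0.641%). In the other libraries their share ran from 0.0264% (0.026% to 0.0269%) in CCR6- replicate 4 to 0.0656% (0.0648% to 0.0665%) in CCR6- replicate 2. Without Pecam1 and Epcam, which T cells are also known to express, the share was 0.585% in CCR6+ replicate 2, 0.00786% in CCR6- replicate 4 and 0.0425% in CCR6- replicate 2. Such intervals cover counting error only. Of the 33 genes, 30 had their highest value in CCR6+ replicate 2. The same was true of 43.6% of the 14582 genes tested, of 81.6% of 38 genes of other organs and of 82.3% of 899 olfactory and vomeronasal receptor genes, so being highest there does not single out lung genes. Each result below that rests on this library is also given without it.

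**Figure D1:**
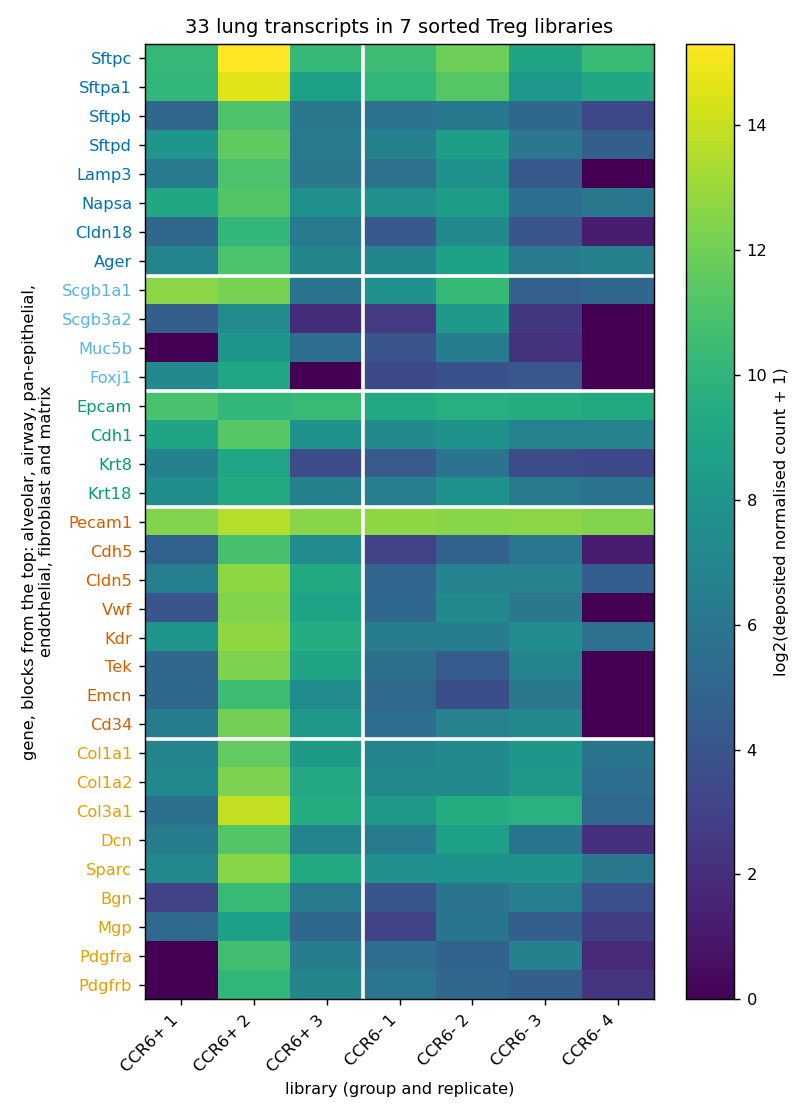
Level of the 33 genes (vertical axis, in blocks by source) in the 7 libraries (horizontal axis), as log2(deposited normalised count + 1) by colour. CCR6+ replicate 2 is the brightest column for 30 genes, and CCR6- replicate 4 holds 8 genes at 0.

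All 8 alveolar genes were highest in CCR6+ replicate 2, and 7 of them were above 0 in every library. Lamp3 was at 0 in CCR6- replicate 4. Sftpc, which encodes surfactant protein C of type II cells, stood at 1173, 40101 and 1205 normalised counts in CCR6+ replicates 1 to 3. In CCR6- replicates 1 to 4 it stood at 1493, 3909, 477 and 1241. CCR6+ replicate 2 was the only high value of its group, and the other 2 CCR6+ libraries lay inside the CCR6- range. Sftpa1, for the collectin surfactant protein A, read 1095, 24301 and 420 in the CCR6+ and 1134, 2502, 288 and 544 in the CCR6- libraries. Sftpb, the surfactant protein needed to form the film, read 31.8, 2077 and 70 against 56.7, 72.1, 34 and 8.8. Its high value in CCR6+ replicate 2 was 28.8-fold the next library. Sftpd, a second collectin, read 249, 2966 and 76.1 against 105, 368, 66.2 and 23.7. For these 4 genes CCR6- replicate 2 was the second library. The type II genes Napsa, a protease that matures surfactant proteins, and Lamp3, a lamellar body protein, reached 2366 and 2027 in CCR6+ replicate 2. Their ranges elsewhere were 46.9 to 550 and 0 to 223. Both genes are also known from antigen-presenting cells. Cldn18, the claudin of alveolar junctions, read 1131 in that library and 1.35 to 144 elsewhere. Ager, the receptor RAGE that marks type I cells, read 1995 there and 80 to 438 elsewhere.

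Per kilobase of exon, Sftpc led the alveolar genes in every library. Its level was 38782 normalised counts per kb in CCR6+ replicate 2 and 462 to 3781 elsewhere. Sftpa1 came to 0.126 to 0.338 of the Sftpc level over the 7 libraries, a narrow range beside that of either gene. The ratio of Sftpb to Sftpc was less even, from 0.00372 in CCR6- replicate 4 to 0.0375 in CCR6- replicate 3. CCR6- replicate 4, the deepest library, thus held Sftpc, Sftpa1 and Ager at 1200, 190 and 47.7 per kb, with Lamp3 at 0 and Cldn18 at 0.304. A count of 0 in that library allows up to 2.03 normalised counts, the value of 3 reads.

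The upstream sequences of Sftpa1 and Sftpb are shown because these genes shared their highest and second libraries, and that of Cldn5 because the endothelial genes followed another order. NKX2-1 is the homeodomain factor known to drive surfactant genes, and 2 spellings of its core, CTCAAG and CAAGTG, were searched on both strands in the 250 bases before the RefSeq start (GRCm38.p6, the assembly of mm10). The spellings can overlap, since the last 4 bases of the first open the second. Capitals mark the matches, all else is in lower case, and each run reads 5′ to 3′ on the gene's strand. The windows are chr14:41131538-41131787 (plus strand) for Sftpa1, chr6:72304360-72304609 (plus strand) for Sftpb and chr16:18776597-18776846 (plus strand) for Cldn5.
Sftpa1: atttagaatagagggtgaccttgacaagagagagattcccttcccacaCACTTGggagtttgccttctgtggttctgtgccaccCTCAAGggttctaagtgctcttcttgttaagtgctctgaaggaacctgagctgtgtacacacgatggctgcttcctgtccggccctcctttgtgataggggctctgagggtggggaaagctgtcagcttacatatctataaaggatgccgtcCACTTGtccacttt
Sftpb: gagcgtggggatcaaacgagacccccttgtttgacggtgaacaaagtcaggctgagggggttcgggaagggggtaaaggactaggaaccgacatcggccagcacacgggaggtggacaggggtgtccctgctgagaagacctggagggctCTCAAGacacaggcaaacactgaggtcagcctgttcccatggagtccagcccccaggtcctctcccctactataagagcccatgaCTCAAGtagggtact
Cldn5: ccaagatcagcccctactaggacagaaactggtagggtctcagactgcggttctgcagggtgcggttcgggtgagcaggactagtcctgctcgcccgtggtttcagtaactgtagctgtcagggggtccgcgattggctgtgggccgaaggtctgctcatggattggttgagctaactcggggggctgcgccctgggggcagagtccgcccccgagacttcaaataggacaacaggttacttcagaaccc
Sftpa1 held 3 matches, the nearest starting 14 bases before the start, and Sftpb held 2, the nearest at 15 bases. Cldn5 held none, which says only that these letters are not in this window. RefSeq promoters were matched for 18 of the 33 genes, with 19 windows. Matches were found in 3 of 6 alveolar, 2 of 5 endothelial, 2 of 5 fibroblast and matrix and 0 of 3 pan-epithelial windows. Over all 32851 promoters of this length, 22.6% held at least 1 of the spellings. A match is a description of the letters and not a bound site.

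On mean levels CCR6+ replicate 2, CCR6- replicate 2 and CCR6+ replicate 1 led the airway genes, in the same order as the alveolar ones. Single airway genes departed from that order. Scgb1a1, the club cell secretoglobin CC10, was highest in CCR6+ replicate 1, at 6428 normalised counts, above the 4611 of CCR6+ replicate 2. It read 58.9 in CCR6+ replicate 3 and 214, 1188, 24.8 and 33.8 in CCR6- replicates 1 to 4. Both groups thus held high and low libraries, and CCR6+ replicate 3 lay inside the CCR6- range. Relative to Sftpc per kb, Scgb1a1 was 11.9 in CCR6+ replicate 1 and 0.0592 to 0.66 in the 6 other libraries. Scgb3a2, another secretoglobin of club cells, had its highest value in a CCR6- library, 311 in replicate 2, against 168 in CCR6+ replicate 2 and 0 to 24.1 elsewhere. Muc5b, a gel-forming airway mucin, read 0, 259 and 45.7 in the CCR6+ and 15.1, 83.7, 3.68 and 0 in the CCR6- libraries. Foxj1, the master regulator of motile cilia, read 146, 503 and 0 against 9.46, 13.3, 16.6 and 0. The 4 genes therefore had 3 different leading libraries, and CCR6- replicate 4 was at 0 for all but Scgb1a1.

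Of the pan-epithelial genes, Epcam behaved unlike every gene above. Epcam, a homophilic adhesion molecule of epithelia that is also known on some T cells, stood at 1919, 1094 and 1258 normalised counts in the CCR6+ and at 595, 796, 720 and 627 in the CCR6- libraries. Every CCR6+ library lay above every CCR6- library, and CCR6+ replicate 2, so rich in surfactant transcripts, was the lowest of its group. Cdh1, E-cadherin of epithelial junctions, read 491, 2539 and 220 against 153, 222, 109 and 108, so the groups overlapped by a single pair of libraries. The partner keratins of simple epithelia, Krt8 and Krt18, read 103, 539 and 11.2 against 19.9, 54.7, 10.1 and 9.48, and 193, 641 and 104 against 90.8, 229, 75.4 and 58.9. Although the proteins pair in filaments, the ratio of Krt8 to Krt18 per kb moved from 0.0791 in CCR6+ replicate 3 to 0.617 in CCR6+ replicate 2.

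The endothelial genes had a library order unlike that of the alveolar and airway genes, with CCR6+ replicate 3 second for 7 of the 8. On mean levels CCR6+ replicate 2, CCR6+ replicate 3 and CCR6- replicate 3 led, in that order. The fibroblast and matrix genes and the genes of other organs had the same leading libraries, so this order was not particular to endothelial genes. Cldn5, the claudin that seals endothelial junctions, stood at 95.4, 6697 and 613 normalised counts in CCR6+ replicates 1 to 3 and at 31.2, 109, 109 and 23 in CCR6- replicates 1 to 4. Kdr, the VEGF receptor 2, read 263, 6845 and 696 against 88, 85.3, 183 and 50.1. With Epcam it was the only gene of the 33 whose groups did not overlap. Vwf, von Willebrand factor of larger vessels, read 15.5, 5719 and 467 against 33.1, 158, 67.1 and 0. Tek, the angiopoietin receptor TIE2, read 32.6, 5209 and 480 against 49.2, 20.7, 113 and 0. Both were thus raised in CCR6+ replicates 2 and 3 and within the CCR6- range in CCR6+ replicate 1. Cdh5, VE-cadherin, read 1831 in CCR6+ replicate 2, 165 in replicate 3 and 1.35 to 62.5 elsewhere. Emcn, a capillary and venous sialomucin, reached 1472 and 176 in CCR6+ replicates 2 and 3 against 0 to 68 elsewhere. Cd34, a sialomucin of endothelium and progenitors, reached 4449 and 294 against 0 to 157. Against the median of the 6 other libraries, CCR6+ replicate 2 held 127-fold more Tek and 114-fold more Vwf. The corresponding fold was 32.8 for Sftpc and 2.08 for Pecam1.

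Pecam1 varied least among the endothelial genes, from 5317 to 12479 normalised counts. It read 5480, 12479 and 5976 in the CCR6+ and 6648, 5995, 6456 and 5317 in the CCR6- libraries. In CCR6- replicate 4, Pecam1 stood at 854 per kb while Vwf, Tek, Emcn and Cd34 were at 0 and Cdh5 at 0.322.

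The fibroblast and matrix genes were again highest in CCR6+ replicate 2, all 9 of them. Col3a1, a chain of fibrillar collagen III, stood at 49.8, 15075 and 718 normalised counts in the CCR6+ and 292, 709, 863 and 35.9 in the CCR6- libraries. Here CCR6- replicate 3 came second, ahead of CCR6+ replicate 3. The collagen I chains Col1a1 and Col1a2 read 112, 3080 and 327 against 120, 151, 269 and 61.6, and 158, 4943 and 590 against 148, 149, 306 and 45.3. Per kb, Col1a1 was 1.05 to 2.57 times Col1a2 over the 7 libraries, a narrow range for the pair of chains. Sparc, a collagen-binding matricellular protein, read 135, 6142 and 635 against 214, 224, 228 and 67.7. The small proteoglycans Dcn and Bgn read 2354 and 1301 in CCR6+ replicate 2, and 3.38 to 413 and 7.73 to 94.7 elsewhere. Mgp, an inhibitor of matrix calcification, read 396 there and 6.09 to 60.5 elsewhere. Pdgfra and Pdgfrb, the PDGF receptors of fibroblasts and of pericytes, were both at 0 in CCR6+ replicate 1, where 0 allows up to 2.58 normalised counts. They reached 1601 and 1121 in CCR6+ replicate 2 and 2.71 to 124 in the 5 other libraries.

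Other genes of the same sources, in lists chosen by cell type, were also mostly highest in CCR6+ replicate 2, while the order of the other libraries differed in part. For the other type II genes CCR6- replicate 2 lay only 0.04 above the median of the remaining libraries, against 1.51 for the alveolar genes. Of 13 other endothelial genes, all 13 were highest in CCR6+ replicate 2. Plvap, the diaphragm protein of fenestrated endothelium, reached 15079 normalised counts there and 1995 in CCR6+ replicate 3, against 58.2 to 360 elsewhere. All 10 other type I genes were highest in CCR6+ replicate 2, among them Cav1, for caveolin of type I cells and endothelium, at 13892 against 13.5 to 1513. All 8 smooth muscle and pericyte and all 4 mesothelial genes were also highest there. Of 10 other type II genes, 7 were, among them Abca3, at 2746 against 929 to 1861 elsewhere. Fasn, Lpcat1 and Abca3 had the 3 highest means of that list, and Fasn and Lpcat1 were not highest in CCR6+ replicate 2. Lpcat1, a lysophospholipid acyltransferase, read 2453 to 3548 in all 7 libraries. Of 10 other airway genes 7 were highest in CCR6+ replicate 2. Cyp2f2, a club cell cytochrome, stood at 3389 there, 790 in CCR6+ replicate 1, 370 in CCR6- replicate 2 and 17.6 to 66 elsewhere. No gene of these lists passed the limma test between the groups. Postn, a matricellular protein and a member of the list of other fibroblast genes, came nearest (limma adjusted p = 0.0625). Both count tools called Postn higher in CCR6+ cells (edgeR adjusted p = 0.0114, DESeq2 adjusted p = 1.28e-32). They also did so without CCR6+ replicate 2 (edgeR adjusted p = 0.0117, DESeq2 adjusted p = 9.07e-26). It did not follow the fibroblast genes, at 4864, 3903 and 3641 in the CCR6+ and 346, 413, 554 and 296 in the CCR6- libraries.

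**Figure D2:**
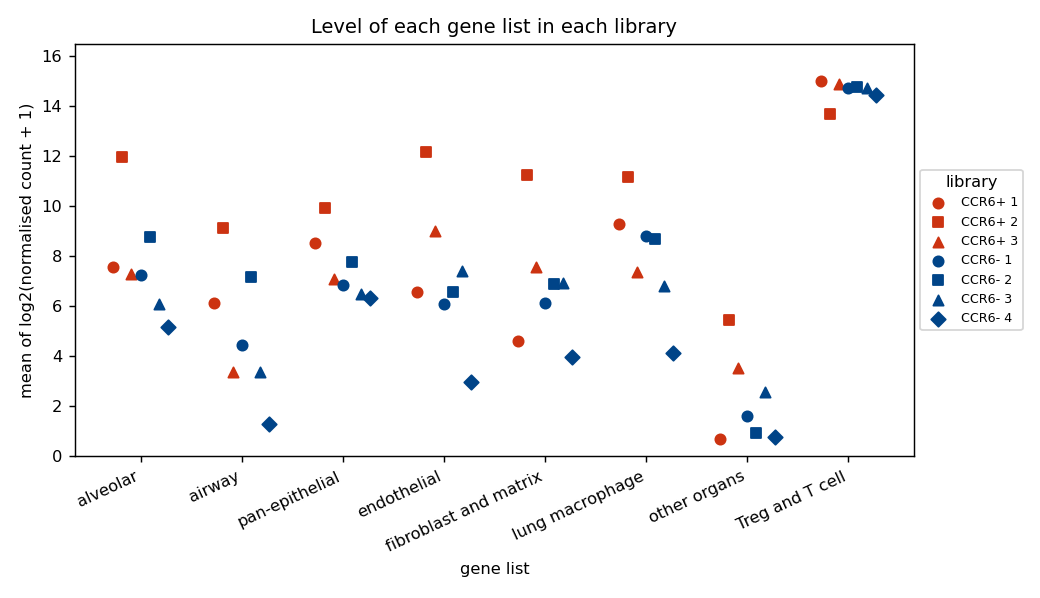
Mean of log2(normalised count + 1) (vertical axis) of each gene list (horizontal axis), 1 point per library, CCR6+ in red and CCR6- in blue. CCR6+ replicate 2 is highest for each lung list and lowest for the Treg and T cell list. The order of the other libraries differs in part between lists, with CCR6- replicate 4 lowest for each lung source.

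Read by library, the lists gave each library a different mixture. On the mean of log2(value + 1), CCR6+ replicate 2 exceeded the median of the remaining 6 by 4.70 for alveolar, 5.22 for airway, 2.98 for pan-epithelial, 5.60 for endothelial and 4.74 for fibroblast and matrix genes. Genes of other organs exceeded it there by about as much, 4.20 over all 38, 5.35 for neural and 4.45 for liver genes, and the olfactory and vomeronasal receptor genes by 3.75. CCR6+ replicate 1 exceeded that median for airway (2.20), pan-epithelial (1.56) and alveolar genes (0.32). It lay below it for endothelial (-0.44) and fibroblast and matrix genes (-2.29). CCR6+ replicate 3 lay above it for endothelial (2.44) and fibroblast and matrix genes (1.05). For airway (-1.93), pan-epithelial (-0.21) and alveolar genes (-0.12) CCR6+ replicate 3 lay below it. Among the CCR6- libraries, replicate 2 lay above it for airway (3.26), alveolar (1.51), pan-epithelial (0.80) and fibroblast and matrix genes (0.39). For endothelial genes replicate 2 lay below it (-0.40). Replicate 3 lay above it for endothelial (0.84) and fibroblast and matrix genes (0.41). For airway (-1.91), alveolar (-1.36) and pan-epithelial genes (-0.94) replicate 3 lay below it. CCR6- replicate 4 was lowest for each of the 5 sources, at -2.27 for alveolar and -4.01 for endothelial genes. CCR6- replicate 1 stayed between -0.90 and -0.19 for all 5. The 2 sorted groups did not separate on any of these levels.

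Shares of the summed level per kb showed the mixtures within a library. With Pecam1 and Epcam left out, which was chosen after their even levels were seen, 84.6% of the lung signal in CCR6+ replicate 1 was airway, nearly all of it Scgb1a1 (84.1%). Alveolar genes made up 67.7% in CCR6+ replicate 2, 51.8% in CCR6+ replicate 3 and 53.1% to 87.8% in the CCR6- libraries. The endothelial share was 25.2% in CCR6+ replicate 3, 13.8% in CCR6- replicate 3 and 10.7% in CCR6+ replicate 2, against 0.799% to 2.07% in the other libraries. The fibroblast and matrix share was likewise highest in CCR6- replicate 3, at 21.7%, and in CCR6+ replicate 3, at 14.4%. The airway share of CCR6- replicate 2 was 32.5%. Leaving out these 2 genes changed the order. With all 33 included, the endothelial share was largest in CCR6- replicate 3, at 46.1%, of which Pecam1 made 39.4%, and was 37.9% in CCR6+ replicate 3. The alveolar share was then 25.5% to 52.4% in the CCR6- libraries, and the airway share of CCR6+ replicate 1 was 76.3%.

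**Figure D3:**
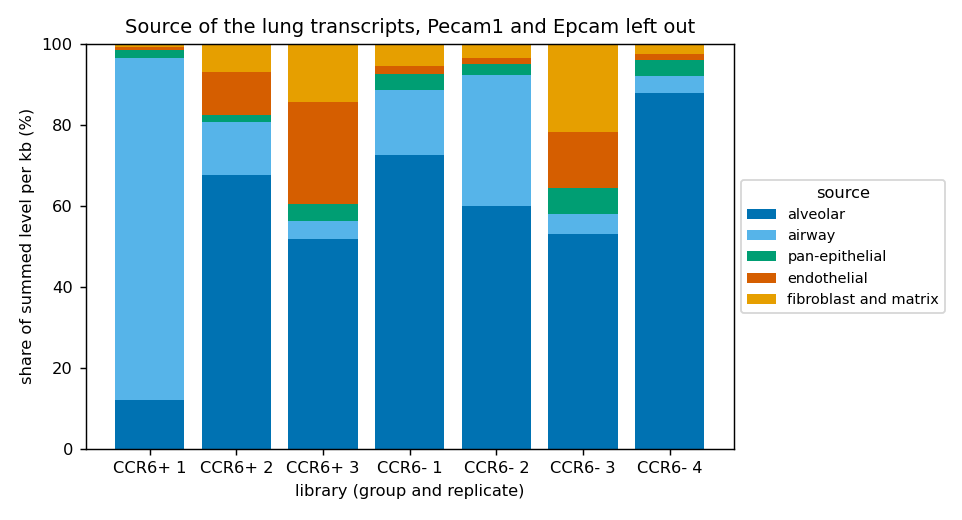
Share of the summed normalised count per kb of exon (vertical axis, percent) that each source takes in each library (horizontal axis), over 31 genes without Pecam1 and Epcam. Airway genes fill 84.6% of CCR6+ replicate 1, and over these 31 genes the endothelial share is largest in CCR6+ replicate 3, at 25.2%.

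Genes of other organs were read as a floor, since lung cells are not known to use most of them. The 38 genes of liver, neural, pancreas, skin, testis, kidney and eye lists had a median of 13.3 normalised counts per kb in CCR6+ replicate 2 and 5.83 in CCR6+ replicate 3. The median was 1.24 in CCR6- replicate 3 and 0 to 0.205 in the 4 other libraries. These 3 libraries also had the fewest of the 38 genes at 0, with 2, 9 and 5, against 16 to 29. Likewise, of 899 olfactory and vomeronasal receptor genes, 99 were at 0 in CCR6+ replicate 2, 295 in CCR6+ replicate 3 and 304 in CCR6- replicate 3, against 626 to 861 elsewhere. The libraries with more endothelial and fibroblast signal were thus those with more of this signal, whose part in the levels was not tested. In CCR6+ replicate 2, 31 of the 33 lung genes exceeded per kb the highest of the 38 genes, Ins1 at 169, and Muc5b (17.3) and Pdgfra (160) did not. In CCR6+ replicate 3 only 13 of 33 exceeded the highest, Gcg at 54.4. Cldn5 (433), Tek (102) and Kdr (77.1) were among the 13, while Cdh5 (39.4), Cd34 (40.4), Emcn (32.5) and Vwf (29.1) were not. The number above the highest such gene was 23 in CCR6+ replicate 1 and 16, 22, 18 and 7 in CCR6- replicates 1 to 4. All 8 alveolar genes exceeded it in CCR6- replicate 2, but only 3 of 8 endothelial ones.

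**Figure D4:**
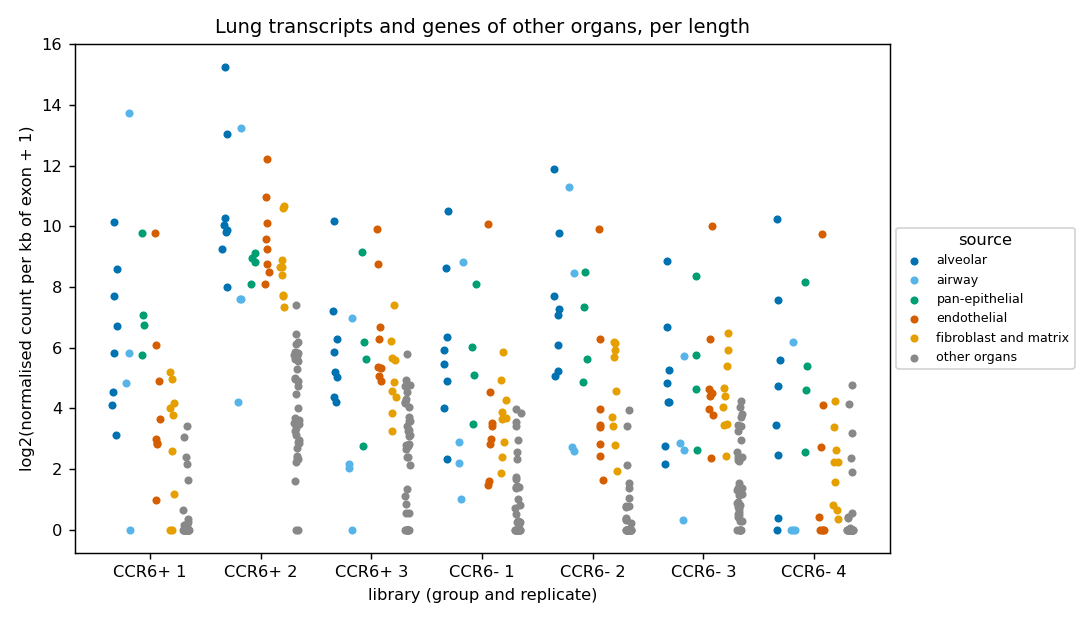
Each point is 1 gene in 1 library: log2(normalised count per kb of exon + 1) on the vertical axis, library on the horizontal axis, with the 33 lung genes coloured by source and 38 genes of other organs in grey. In CCR6+ replicate 2 the coloured points lie above nearly all grey ones, with 31 of 33 above the highest, whereas in CCR6- replicate 4 only 7 do.

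Markers of lung macrophages also differed between libraries. The mean of 8 such genes on the log2 scale was 11.2 in CCR6+ replicate 2, 9.31 in CCR6+ replicate 1, 8.81 and 8.71 in CCR6- replicates 1 and 2, 7.36 in CCR6+ replicate 3 and 6.83 and 4.14 in CCR6- replicates 3 and 4. Chil3, a chitinase-like protein of alveolar macrophages, stood at 36360, 48181 and 1252 normalised counts in the CCR6+ and 16509, 23205, 3552 and 496 in the CCR6- libraries. All 8 were highest in CCR6+ replicate 2. Their part in the lung levels was not tested.

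The levels were then compared between CCR6+ and CCR6- cells. On log2(value + 1), where low genes are understated, all 33 genes had positive differences, CCR6+ minus CCR6-, but Scgb3a2 was negative with quantile normalization (-0.076), edgeR (-0.47) and DESeq2 (-0.32), and 7 of the 33 were negative with array weights. None passed at an adjusted p of 0.05 (limma, two-sided, 14582 genes), and among all genes 0.0% passed. Unadjusted, 4 of the 33 had limma p under 0.05, as did 1540 of the 14582 genes tested, a similar share. The median difference of the 33 was 2.20, beside 0.10 for all genes tested, of which 56.9% were positive. It was 2.5 both for the 13 tested genes of other organs and for 104 olfactory and vomeronasal receptor genes, so a shift of this size was not particular to lung genes. Without CCR6+ replicate 2 the median of the 33 was 0.89, with 23 positive and 10 negative, beside 0.04 for all genes, 0.82 for other organs and 1.01 for the receptor genes. By source the medians with and without that library were 2.19 and 0.55 for alveolar, 1.96 and 0.36 for airway, 1.72 and 1.04 for pan-epithelial, 3.86 and 2.26 for endothelial and 1.87 and 0.53 for fibroblast and matrix genes. The positive direction of 10 genes, among them Sftpc, Sftpa1, Ager, Col3a1 and Pecam1, was therefore carried by 1 library. Sftpc went from 1.49 (SE 1.43) to -0.20 (SE 0.82), and Col3a1 from 1.52 (SE 2.08) to -0.58 (SE 1.69).

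Every CCR6+ library lay above every CCR6- library for Epcam and Kdr, 2 of the 33 genes, and for 7.96% of all genes tested. The opposite, every CCR6+ library below, held for 0 of the 33 and for 5.53% of all genes. The share of members is near the background, so it is not a result about the members as a set. Epcam stood at 1424 ± 437 (SD, n = 3) in the CCR6+ and 684 ± 91.5 (SD, n = 4) in the CCR6- libraries, a difference of 1.02 (SE 0.25, limma adjusted p = 0.403). Without CCR6+ replicate 2 it was 1.19 (SE 0.25). Kdr stood at 2601 ± 3681 and 102 ± 56.9, a difference of 3.55 (SE 1.12, limma adjusted p = 0.44), and 2.22 (SE 0.63) without that library. EdgeR on the recovered reads called 0 of the 33, and 0.0137% of all genes. DESeq2 called 8 higher, namely Epcam, Cdh1, Cdh5, Cldn5, Kdr, Col1a1, Col1a2 and Sparc, gave 7 no adjusted p, and called 3.72% of all genes higher. Without CCR6+ replicate 2, an alternative added after the data were seen, DESeq2 called Epcam (adjusted p = 0.00133) and Kdr (adjusted p = 0.0304), beside 0.713% of all genes.

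**Figure D5:**
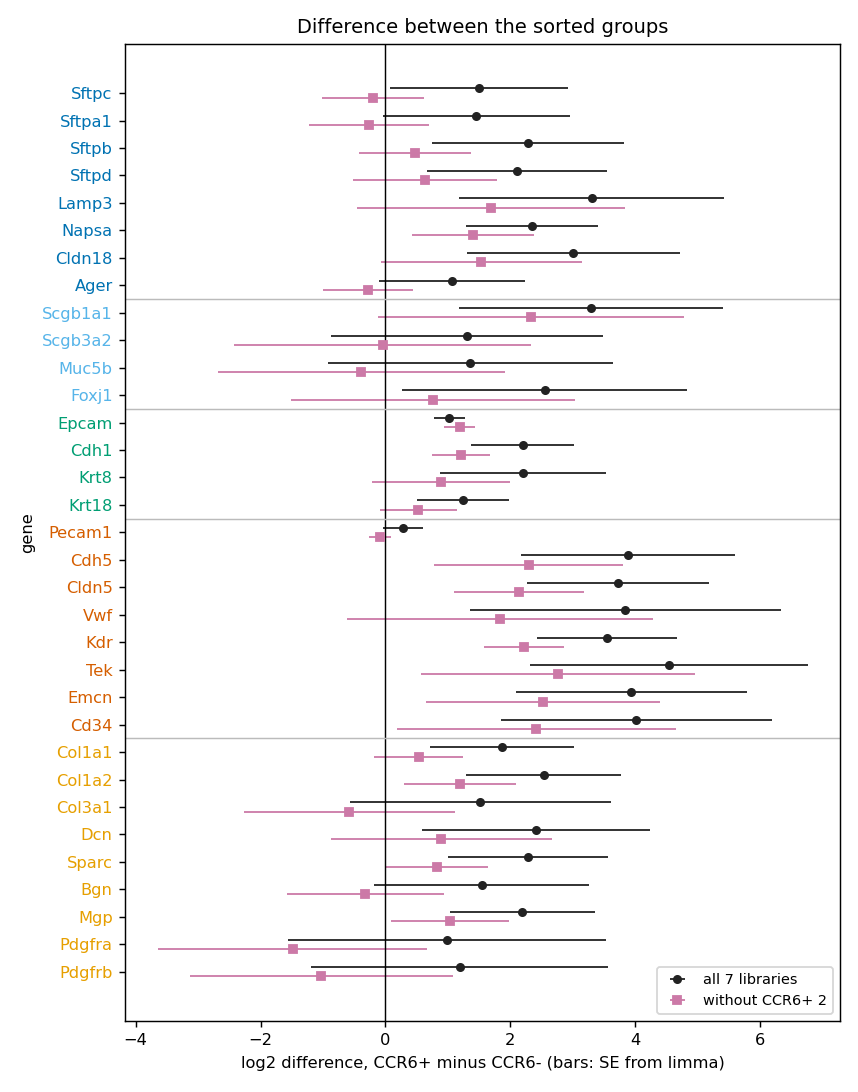
Log2 difference, CCR6+ minus CCR6- (horizontal axis, bars are the SE from limma), of each of the 33 genes (vertical axis), with all 7 libraries in black and without CCR6+ replicate 2 in pink. All black points lie above 0 and 10 pink points lie below it.

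The positions of the genes the results turn on, all annotated as protein coding in GENCODE mouse release 21 on mm10, are these. Sftpc lies on chromosome 14 from 70520949 to 70524081 and Scgb1a1 on chromosome 19 from 9083636 to 9087958. Epcam lies on chromosome 17 from 87635979 to 87651129 and Kdr on chromosome 5 from 75932827 to 75978458. Cldn5, a gene of a single exon, lies on chromosome 16 from 18776847 to 18778262 and Col3a1 on chromosome 1 from 45311538 to 45349706.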

How the data were processed

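RNA-seq of 7 libraries was used, 3 CCR6+ and 4 CCR6-, grouped by their titles. The deposited signal is a normalised count for each gene symbol: in each library the values are whole multiples of 1 step, within 0.001 reads for 100% of them, as when the authors divide reads by a size factor. Per the submitters' processing notes, the tools were STAR 2.5.1b, HTSeq 0.6.1p1 and DESeq2 1.6.3 and the build was mm10, named without their roles. No source used here names the annotation or says if strand was used in counting, so a gene and its antisense partner, or near copies, may share reads. Per the labels' protocols, a SMART-Seq v4 kit made the cDNA and KAPA Hyper Prep the libraries.

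Division by the step gave 11607780 to 47261246 reads per library. A count of 0 allows at most 3 reads, or 2.03 to 6.82 normalised counts. Genes that reached 10 in 3 or more libraries were kept (14582, all 33 members among them). They were tested on log2(value + 1) with limma (version 3.58.1, R version 4.3.3), two-sided, with Benjamini-Hochberg adjustment over all kept genes and a threshold of 0.05. The members were not tested as a set. Alternatives were edgeR (4.0.16) and DESeq2 (1.42.0) on recovered reads, pseudocounts of 0.5 and 8, other filters, scalings and weights, the replicate block, and leaving out each library. The fits were also run on simulated data with known changes. No simulated library stood apart as CCR6+ replicate 2 does, so that run does not speak to this feature of the data. Levels are compared between genes per kb of all exon bases in GENCODE mouse release 21, which understates genes with many isoforms. No pair of libraries agreed within read sampling noise (smallest chi-square per degree of freedom 29.1), so none looked like another library read again. Each was counted as 1 sample, although this check cannot tell whether libraries came from separate mice. The members and gene lists were chosen with earlier results of these data known. All 33 members are named. Of other lists the text gives counts and at most 3 genes of highest mean. Apoa2 and Amy2b of the other-organ lists were not matched and not used here.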

Additional observations from a re-analysis of the deposited data

Results flagged for a closer look

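The 4 CCR6- libraries were screened for a single value apart from its group in each of the 33 genes and 5 source levels. About 5% of screens would be marked by chance, and 5 of the 38 screens were, a larger share. The screens use the same 4 libraries and are not independent. CCR6- replicate 2 was apart for 4 genes. Cldn18 was 144 normalised counts there and 1.35 to 18 in its group, and Ager was 438 beside 80 to 127. Scgb1a1 was 1188 beside 24.8 to 214, and Scgb3a2 was 311 beside 0 to 5.67. CCR6- replicate 4 was apart for Sparc, at 67.7 beside 214 to 228. With 3 libraries, the CCR6+ group could not be screened.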

How the results depend on the processing

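No gene was called in the comparison as reported. The count was 1 with a pseudocount of 0.5 or TMM scaling, 2 with a pseudocount of 8, a mean of at least 100, or edgeR, 10 with a robust trend, 679 with DESeq2 and 2486 with array weights, whose fit stopped before it converged. It was 0 to 1 with each library left out, the 1 being without CCR6+ replicate 1. Without CCR6+ replicate 2, chosen after the data were seen for the count tools, edgeR called 2 and DESeq2 184. Quantile normalization moved the median of all genes from 0.10 to -0.08. The cause of these changes was not tested.

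Scgb3a2 turned negative with quantile normalization (-0.076), edgeR (-0.47), DESeq2 (-0.32) and array weights (-0.96). With array weights Sftpa1 was -0.60, Sftpd -0.19, Scgb1a1 -0.53, Foxj1 -3.37, Krt8 -0.40 and Pecam1 -0.10, the airway median was -0.75 and the pan-epithelial median 0.49. With each library left out in limma, Sftpc ranged from -0.20 to 2.35, Sftpa1 from -0.27 to 2.66, Ager from -0.28 to 1.75, Scgb3a2 from -0.045 to 2.95, Muc5b from -0.39 to 3.62, Pecam1 from -0.088 to 0.51, Col3a1 from -0.58 to 3.53, Bgn from -0.32 to 3.29, Pdgfra from -1.49 to 3.83 and Pdgfrb from -1.03 to 4.04. Each lowest value was without CCR6+ replicate 2. Without that library edgeR and DESeq2 gave -0.63 and -0.57 for Sftpc, -0.61 and -0.54 for Sftpa1, -0.11 and -0.043 for Lamp3, -0.68 and -0.62 for Ager, -2.59 and -2.54 for Scgb3a2, -0.22 and -0.16 for Muc5b, -0.15 and -0.080 for Pecam1, -0.37 and -0.30 for Col3a1, -0.50 and -0.44 for Dcn, and -0.074 and -0.011 for Bgn. EdgeR gave -0.066 for Pdgfra, and the alveolar median was 0.028 by edgeR and 0.093 by DESeq2.

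The distance of CCR6+ replicate 2 from the median of the other libraries was 2.14 for pan-epithelial and 2.73 for endothelial genes on summed values, which Epcam and Pecam1 weigh on, and 3.86 for pan-epithelial genes without their gene of highest mean. Same-numbered libraries correlated at -0.13, -0.11 and 0.34 in their deviations from group means, and differently numbered ones at -0.76 to 0.69. Deviations within a group of 3 or 4 libraries are tied to one another. This check therefore cannot tell whether same-numbered libraries came from the same mice. With the replicate block 0 genes were called, and the median over the 33 genes was 1.68. Depth limits the lowest genes, since 3 reads are worth 6.82 in CCR6+ replicate 2.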
